A study of Mus musculus with 6 samples.

Results

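The genes described here are the potassium channel subunits of mouse skeletal muscle, taken as every gene of the deposited table whose symbol starts with Kcn. They number 54 of the 14617 listed genes. They were classed as 21 voltage-gated pore-forming (alpha) subunits, 8 inward rectifiers, 6 K2P leak channels, 7 calcium- or sodium-activated channels and 10 auxiliary subunits. The pattern also takes in the non-coding RNA Kcnq1ot1 and Kcnrg, a regulator of channel assembly that is no channel subunit.

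Messenger RNA was sequenced from the tibialis anterior, a fast muscle of the lower leg, of 3 PRMT7-/- mice (KO) and 3 PRMT7+/+ mice (WT). All were C57BL/6 and 8 months old. The product of Prmt7 is a methyltransferase that acts on arginines of other proteins, and the comparison asks which transcripts differ in muscle without it. The labels name neither the sex of the mice nor which part of Prmt7 was deleted. The deposited table holds 1 mean normalized count per genotype, and every mean was the exact average of whole counts from 2 libraries, not 3. These are called KO library 1 and 2 and WT library 1 and 2. They carry no mouse number. Nothing in the labels ties them to separate mice, and p-values reflect only how far these libraries spread, which in WT may be technical. No header says which column of means is which genotype. KO and WT were read from the word order of the table's name, and every direction given here rests on that reading.

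Counts summed over listed genes were 24814798 and 22849273 in the KO libraries and 23695468 and 22629288 in the WT libraries. Prmt7 itself had 706 and 718 normalized counts in KO, against 885 and 844 in WT, with an FDR of 0.587 in the authors' deposited table. Its summed count does not check the labels, since the deleted part is not known. Xist, the RNA that coats the inactive X chromosome of females, had 2 and 1 counts in KO, against 10829 and 10858 counts in WT. The 4 listed Y-linked markers had counts in KO library 2 alone, with Ddx3y at 2738 counts there and 0 in KO library 1 and in both WT libraries. The KO libraries, which differ in these counts, were thus not made from the same RNA. A difference between genotypes cannot be told apart from a difference that goes with Xist. The defining transcripts of skeletal fibres were abundant in every library: muscle actin Acta1 had 750946 and 884342 normalized counts in KO and 708866 and 773481 in WT.

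Potassium channels let potassium leave the fibre and so set its resting potential and end its action potential. Voltage-gated alpha subunits open on depolarisation and assemble as tetramers. Inward rectifiers hold the resting potential and, with a sulfonylurea receptor, couple it to ATP, while K2P channels carry a steady leak. Calcium-activated channels respond to the calcium of contraction, and auxiliary subunits change how pores open, close or reach the membrane.

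Of the 54 genes, Kcne1l rose and Kcna7 fell in KO muscle, and the other 52 did not pass an FDR of 0.05 in the authors' deposited table. That is 3.7% of the channel genes, against 2.71% of all listed genes, of which 1.01% were higher and 1.7% lower in KO. Kcne1l, also known as Kcne5, encodes a small membrane protein that modifies voltage-gated channels such as Kcnq1, and it lies on chromosome X at 142304753 to 142306198 (mm10). Kcna7 encodes a Shaker-type voltage-gated subunit known for its expression in skeletal muscle and heart, and it lies on chromosome 7 at 45405960 to 45411382. Since these 2 genes carry the called changes, their RefSeq promoters (GRCm38.p6, which is mm10) are printed here, each from 250 bases before to 50 bases after the start. Capitals mark the E-box letters CANNTG, the motif that myogenic factors of the MyoD family are known to bind, searched on both strands. Kcna7 lies on the plus strand, at chr7:45405710-45406009, and Kcne1l on the minus strand, at chrX:142306149-142306448.
Kcna7: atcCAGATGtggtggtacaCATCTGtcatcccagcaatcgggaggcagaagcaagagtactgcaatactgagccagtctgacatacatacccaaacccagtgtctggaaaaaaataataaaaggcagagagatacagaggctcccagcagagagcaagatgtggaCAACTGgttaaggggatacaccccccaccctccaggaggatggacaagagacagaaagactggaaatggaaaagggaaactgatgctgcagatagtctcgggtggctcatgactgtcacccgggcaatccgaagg
Kcne1l: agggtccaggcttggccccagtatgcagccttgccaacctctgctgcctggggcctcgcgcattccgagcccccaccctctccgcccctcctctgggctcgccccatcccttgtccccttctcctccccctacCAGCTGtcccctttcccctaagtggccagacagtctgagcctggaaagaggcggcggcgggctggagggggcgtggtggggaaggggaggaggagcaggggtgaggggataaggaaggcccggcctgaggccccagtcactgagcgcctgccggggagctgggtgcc
The Kcna7 promoter held 3 CANNTG motifs, a GC content of 50.3% and 4 CG dinucleotides. The Kcne1l promoter held 1, which reads CAGCTG, with a GC content of 69.7% and 12 CG dinucleotides, against a median of 52.7% and 7 over all promoters. CANNTG is common and was present in 72.3% of all 32851 RefSeq promoters and in 44 of the 56 promoters matched to 40 of the channel genes (78.6%). The narrower CAGCTG, which is 1 form of CANNTG, was present in 18 of the 56 (32.1%), against 16.3% of all promoters. Of the other motifs searched on both strands, GGGCGG was present in 22 of the 56 (39.3%), against 35.7% of all promoters. TATAAA was present in 3 (5.36%), against 13.6%, and the MEF2 motif, which can overlap TATAAA, in 0, against 3.19%. These matches describe letters in a window, and no binding was measured.

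Kcne1l had 815 and 660.0 normalized counts in KO, against 201 and 265 in WT. Both KO libraries lay far above both WT libraries. By the authors' deposited table the KO level was 3.16-fold higher, a log2 ratio of 1.66 at an FDR of 6.61e-08. A limma fit to the recovered libraries, on log2 of the normalized count plus 1, gave a difference of 1.66 ± 0.169 (SE, 2 libraries each; 95% interval 1.26 to 2.06), with an adjusted p of 0.0192. Kcne1l is an X-linked gene in libraries whose Xist counts separate the genotypes. Of the 494 listed genes of chromosome X, 19 were called in the authors' deposited table (3.85%), 8 of them higher in KO (1.62%), Kcne1l among these, and 11 lower (2.23%). The KO libraries differ in Y-linked counts but are alike in Xist, with 2 and 1 counts. Both held the Kcne1l difference, at 1.81 and 1.50 on the log2 scale over the WT mean, which cannot tell genotype from Xist. Its 8 listed neighbours within 1000 kb had log2 ratios from 0.04 to 0.77 with a median of 0.22 in the authors' deposited table, and 0 of the 8 passed the FDR. The nearest, Acsl4, a fatty acid CoA ligase 11.8 kb away, had 1151 and 1325 normalized counts in KO and 1045 and 1159 in WT. The farthest of the 8, Chrdl1, an inhibitor of bone morphogenetic proteins, had 309 and 216 in KO and 158 and 149.9 in WT.

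Kcna7 had 3397 and 3421 normalized counts in KO, against 5586 and 5429.7 in WT. The libraries within each genotype lay close together and the genotypes did not overlap. Its log2 ratio in the authors' deposited table was -0.69, a 1.62-fold lower level in KO, with an FDR of 0.00031. The limma fit gave -0.69 ± 0.109 (SE, 2 libraries each) with an adjusted p of 0.0460. This limma call was close to the threshold: it held in 8 of 15 other settings of the fit, with adjusted p from 0.0377 to 0.197 and differences from -0.71 to -0.58. Without WT library 1 the adjusted p was 0.197, and without WT library 2 it was 0.169. For Kcne1l the call held in all 14 other settings that include it, with differences from 1.47 to 1.86 and adjusted p from 0.00842 to 0.0442. Within 1000 kb of Kcna7 83 genes were listed, with a median log2 ratio of 0.01. Other channel genes lie in this stretch, Kcnc1, Kcnj11 and Kcnj14 among them, with log2 ratios on both sides of 0. Of the 83 neighbours, 3 were called in the authors' deposited table, where 2.71% of all listed genes were called. The nearest of the 3, 23.5 kb away, was Gys1, the glycogen synthase of muscle, which fell to 10587 and 9468 normalized counts in KO, against 19467 and 16631 in WT. The other called neighbours, Rcn3 and Mybpc2, rose, with log2 ratios of 0.53 and 0.58 in the authors' deposited table. Genes of fibre type also differed in the authors' deposited table. Of 9 slow fibre markers 0 rose and 3 fell (Mb, Myl3 and Casq2), and of 10 fast fibre markers Myh4 rose and Myh1 fell. The slow markers did not move as a set: 5 of the 9 had a log2 ratio above 0 and 4 below, with a median of 0.12. Of the 10 fast markers 8 were above 0 and 2 below. Their part in the Kcna7 value was not tested. On the limma test 0.889% of 14053 genes were called, 0.427% higher and 0.463% lower in KO.

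**Figure D1:**
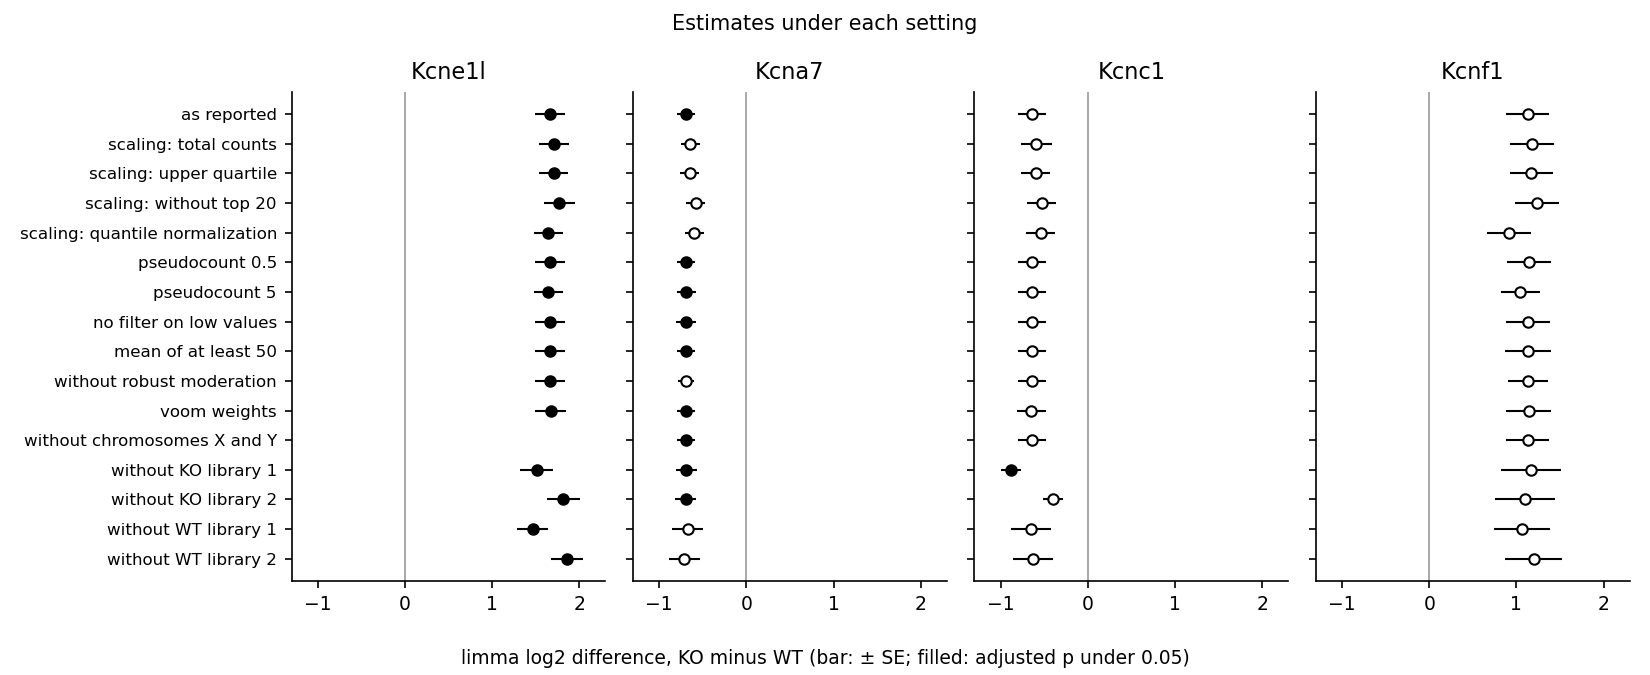
Each panel shows 1 gene, with the limma log2 difference (KO minus WT) on the horizontal axis and the setting of the fit down the page; bars are ± SE and filled points have an adjusted p under 0.05. Kcne1l is filled in every row that includes it, while Kcna7 keeps a negative difference but is filled in 8 of its 15 alternatives, and Kcnc1 is filled only without KO library 1.

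Kcna7 was also the channel gene with the highest level per length. Divided by the length of its annotated exons (GENCODE M21), it averaged 1562 normalized counts per kb in KO and 2524 in WT. Kcnc4 came next with 1086 per kb in KO and 796 in WT, followed by Kcnj11 with 792 in KO and 972 in WT. Kcne1l was the 8th, with 478 per kb in KO and 151 in WT. As a share of the summed normalized counts of the 54 genes, in which long transcripts weigh more, Kcna7 took 12.3% and 13.7% in KO, against 20.2% and 17.8% in WT. The same share for Kcne1l was 2.96% and 2.64% in KO, against 0.73% and 0.87% in WT. The sum over all 54 genes was 27575 and 24964 normalized counts in KO and 27718 and 30529 in WT.

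**Figure D2:**
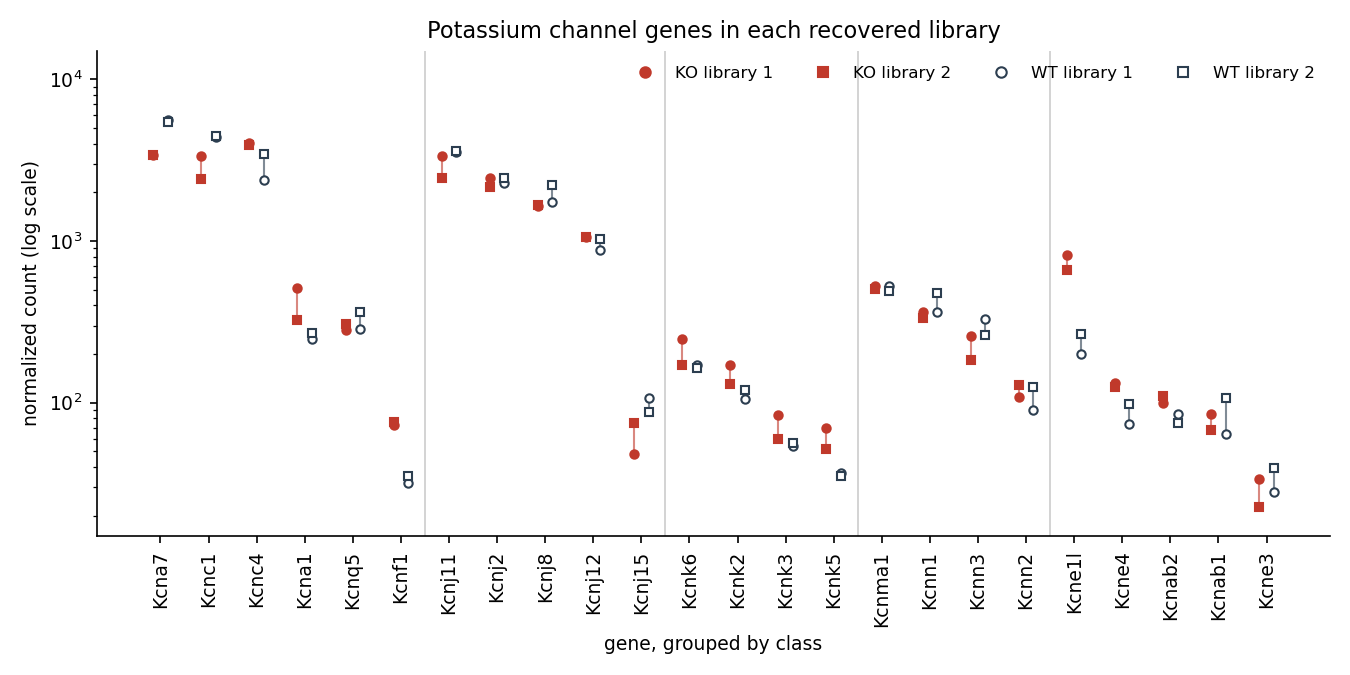
Normalized counts (log axis) of 24 channel genes in each library, grouped by class from voltage-gated at the left to auxiliary at the right; filled red symbols are KO and open symbols WT, and lines join the libraries of 1 genotype. The Kcna7 symbols of KO lie at 3397 and 3421, under both WT symbols, and those of Kcne1l at 815 and 660.0, over both WT symbols.

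Among the 21 voltage-gated alpha subunits, 0 rose and Kcna7 alone fell in the authors' deposited table (4.76% called, against 2.71% of all listed genes). Their log2 ratios had a median of 0.22, against 0.01 over all listed genes, with 14 above 0 and 7 below. The median was 0.02 among members with a mean of at least 50, and it was -0.03 when KO library 1 was left out. An unadjusted p under 0.05 was reached by 5 of the 21 in the authors' deposited table, where 11.1% of all genes reached it. Kcna7, Kcnf1, Kcnc1 and Kcnc4 are among them. In all, 7 of the 54 channel genes (13.0%) reached it, Kcne1l and the K2P gene Kcnk13 included.

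The Shaw-type family forms channels that open at strong depolarisation and let cells fire fast, and its most abundant genes here, Kcnc1 and Kcnc4, lay on opposite sides of WT. Kcnc1, whose product is a fast delayed rectifier known from fast-spiking neurons, had 3357 and 2403 normalized counts in KO, against 4401 and 4451 in WT. Both KO libraries were below both WT libraries, KO library 2 further than KO library 1. For Kcnc1 the authors' deposited table has -0.62 as log2 ratio and 0.0522 as FDR, just outside the threshold, and limma gave -0.64 ± 0.164 (SE) with an adjusted p of 0.107. Leaving out KO library 1 gave Kcnc1 -0.88 with an adjusted p of 0.0228, and leaving out KO library 2 gave -0.40 with an adjusted p of 0.137. Kcnc4, which encodes a rapidly inactivating subunit known to pair with Kcne3 in muscle, had 4032 and 3932 normalized counts in KO, against 2374 and 3468 in WT. Its KO libraries lay together above both WT libraries, which were far apart. The log2 ratio of Kcnc4 was 0.45 at an FDR of 0.439 in the authors' deposited table, and limma gave 0.47 ± 0.179 (SE; 95% interval 0.05 to 0.90) with an adjusted p of 0.218. The ratio of Kcnc4 to Kcnc1 counts, not corrected for length, was 1.20 and 1.64 in KO, against 0.54 and 0.78 in WT. Kcnc2, of the same family, had 36.3 and 32.0 in KO and 45.9 and 43.6 in WT, with an FDR of 0.923 in the authors' deposited table.

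Several subunits carry no current alone and modify other voltage-gated subunits, and among these Kcnf1 had the clearest separation. It had 72.6 and 76.3 normalized counts in KO, against 31.9 and 35.1 in WT. Both KO values were above both WT values and each pair lay close together. Kcnf1 stands in the authors' deposited table at a log2 ratio of 1.15 (FDR 0.147), and limma gave 1.13 ± 0.247 (SE) with an adjusted p of 0.0769. Kcng4, another silent subunit, chosen here after its values were seen, had 445 and 1044 normalized counts in KO, against 940.5 and 1294 in WT. Its low value was in KO library 1 alone, and limma called it only when KO library 2 was left out. The remaining silent subunits Kcng2, Kcns1 and Kcns3 had between 1.99 and 23.6 normalized counts over all libraries.

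The other Shaker-type subunits include Kcna1 and Kcna2, which are known to sit together beside the nodes of myelinated axons. Kcna1 had 512 and 326 normalized counts in KO, against 249 and 271 in WT. Both KO libraries were above both WT libraries, with KO library 1 far higher than KO library 2. The FDR of Kcna1 was 0.541 in the authors' deposited table, and limma gave 0.65 ± 0.213 (SE) with an adjusted p of 0.176, or 0.0284 without KO library 2. Kcna2 had 449 and 257 in KO, against 230.4 and 284 in WT, so that its high value was in KO library 1 alone. Kcna6, which is found on axons with them and whose exons overlap another gene over 39.6% of their length, had 80.8 and 66.0 in KO, against 44.9 and 57.4 in WT. The sources used here do not say whether strand was used in counting. Kcna2 and Kcna6 were chosen after their values were seen, and both have an FDR above that of Kcna1 in the authors' deposited table (0.856 for Kcna2 and 0.730 for Kcna6).

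Markers of Schwann cells, the myelin-forming cells of nerve, were set beside these genes. The summed normalized counts of 8 Schwann cell markers were 24524 and 11893 in KO, against 8412 and 8845 in WT. All 8 had both KO libraries above both WT libraries, as did 25.8% of all listed genes. Of the 8, 0 passed limma or the FDR in the authors' deposited table. An unadjusted p under 0.05 there was reached by 2 (25%), against 11.1% of all listed genes. Against the WT mean, KO library 1 had a median marker level of 1.38 on the log2 scale and KO library 2 a median of 0.51. Of 8 neuron markers 3 were listed, none called, with summed normalized counts of 195 and 295 in KO and 223 and 223 in WT. The part of nerve in the Kcna1, Kcna2 and Kcna6 values was not tested. In whole muscle, fewer cells of a type and less RNA per cell cannot be told apart. Kcna5, another Shaker-type subunit, found in vascular muscle and heart, had 524 and 466 normalized counts in KO, against 555 and 481 in WT, so the genotypes overlapped.

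**Figure D3:**
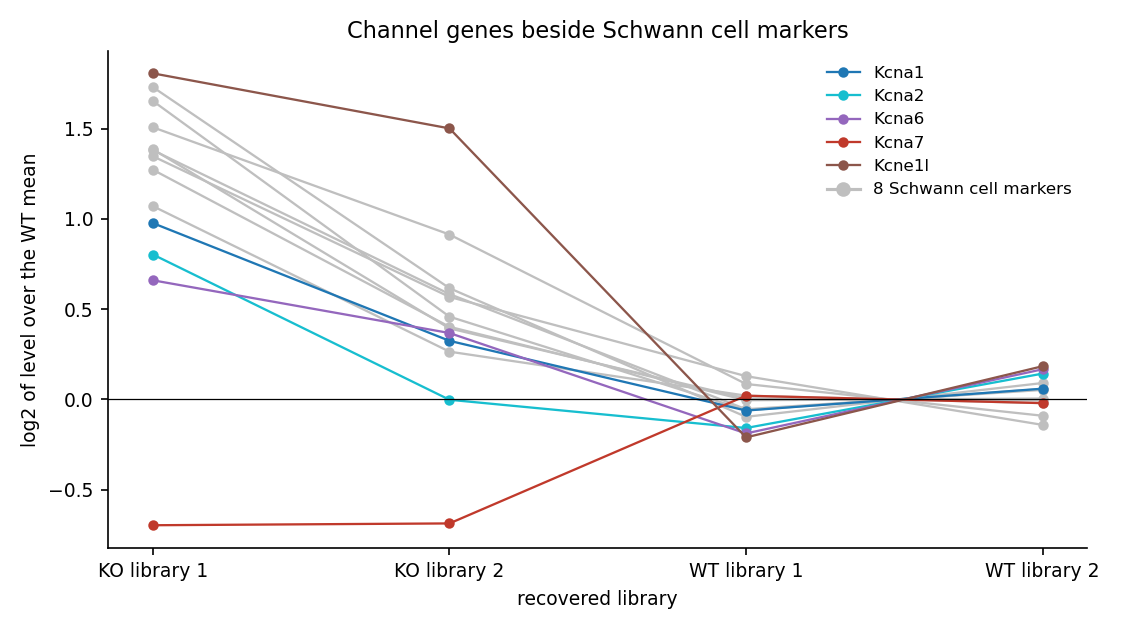
The vertical axis is the log2 of each level over the WT mean and the horizontal axis the library; each line joins the values of 1 gene, in grey for 8 Schwann cell markers. Kcna1 (0.98 in KO library 1 and 0.32 in KO library 2) has the higher value in the same KO library as the markers, and so has Kcne1l (1.81 and 1.50). KO library 1 exceeded KO library 2 in 38 of the 54 channel genes (70.4%, against 51.0% of all listed genes). Kcna7 is equally low in both KO libraries (-0.70 and -0.69).

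Kcnq5, a subunit of the slow M-type channels that steady the membrane near rest, had 283 and 305 normalized counts in KO, against 287 and 363 in WT, with a limma interval from -0.48 to 0.21. Kcnq1, whose product pairs with Kcne subunits, had 105 and 107 in KO and 123 and 97.8 in WT, with an interval from -0.51 to 0.42. Kcnh2, the ERG-type channel that repolarises heart muscle, had 124 and 115 in KO and 117 and 119 in WT. Of the A-type genes, which give fast transient currents, X-linked Kcnd1 had 30.9 and 26.8 in KO, against 18.0 and 18.1 in WT, with an FDR of 0.839 in the authors' deposited table. Kcnd3 was lower still, with 23.6 and 9.28 in KO and 8.98 and 15.95 in WT.

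Of the 8 inward rectifiers, 0 rose and 0 fell by the authors' FDR (2.71% of all listed genes were called) or by limma (0.889% of fitted genes). Also 0 of the 8 had an unadjusted p under 0.05 in the authors' deposited table, against 11.1% of all listed genes. In so small a class these counts are near the shares over all genes. The 8 genes had a median log2 ratio of -0.03, and their summed share of the channel counts was 31.2% and 29.9% in KO, against 31.1% and 30.8% in WT. Kcnj2, which sets the resting potential of the fibre and is mutated in a human periodic paralysis, had 2443 and 2155 normalized counts in KO, against 2287 and 2457 in WT. The genotypes overlapped, and the limma interval for Kcnj2 was -0.30 to 0.21. Kcnj12, its close relative, had 1064 and 1054 in KO, against 886 and 1031 in WT, with an interval from -0.11 to 0.40.

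The ATP-sensitive channel of the fibre has Kcnj11 as its pore. Kcnj11 had 3354 and 2467 normalized counts in KO, against 3557 and 3593 in WT. KO library 1 was near the WT level and KO library 2 well below it. Limma gave Kcnj11 -0.31 ± 0.154 (SE; adjusted p 0.317), and the FDR was 0.697 in the authors' deposited table. Its sulfonylurea receptors did not pass either: Abcc9, the muscle type, had 8207 and 7571 in KO and 8203 and 8852 in WT. Abcc8, the pancreatic type, had 63.6 and 65.0 in KO and 81.8 and 64.9 in WT. Kcnj8, the pore of the ATP-sensitive channel in vascular smooth muscle and pericytes, had 1642 and 1674 in KO, against 1747 and 2213 in WT, with an FDR of 0.732 in the authors' deposited table. The 9 smooth muscle and pericyte markers summed to 27946 and 27537 in KO, against 30716 and 30823 in WT, and 0 of them were called there. The 8 endothelium markers summed to 34937 and 33469 in KO, against 40988 and 40173 in WT. Of these 1, the VEGF receptor Kdr, fell in the authors' deposited table (12.5%, against 1.7% of all listed genes). The part of vessels in the Kcnj8 values was not tested. Kcnj15, an inward rectifier known from kidney, had 48.1 and 75.3 in KO, against 107 and 88.3 in WT. Both KO values lay below both WT values, and limma gave Kcnj15 -0.68 ± 0.275 (SE; adjusted p 0.235). Kcnj10, Kcnj13 and Kcnj14 had between 6.19 and 25.4 normalized counts, and the exons of Kcnj13 overlap Gigyf2 over 49.1% of their length.

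All 6 K2P genes had a log2 ratio above 0 in the authors' deposited table, from 0.10 to 1.34 with a median of 0.41. Of the 6, 0 passed the FDR or limma, against 2.71% of all listed genes and 0.889% of fitted genes. In 5 of the 6 both KO libraries were above both WT libraries, where 25.8% of all listed genes showed this. Leaving out KO library 1 gave a class median of 0.17, and leaving out KO library 2 gave 0.64. Kcnk6, the most abundant of them by count, had 246 and 172 normalized counts in KO, against 171 and 164 in WT. Its KO library 2 was level with WT library 1. Kcnk2, a channel gated by stretch and lipids, had 172 and 131 in KO, against 106 and 120.2 in WT. Kcnk3, an acid-sensitive leak channel, had 84.4 and 59.8 in KO, against 53.9 and 56.4 in WT. Kcnk5, a leak channel sensitive to alkaline pH, had 69.9 and 51.6 in KO, against 36.9 and 35.1 in WT, with limma at 0.72 ± 0.275 (SE; adjusted p 0.213). For these 4 genes KO library 1 was the highest of all libraries.

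Kcnk13, known from microglia, had the highest ratio of the K2P genes and was chosen after its values were seen. It had 47.2 and 56.7 normalized counts in KO, against 22.9 and 18.1 in WT, from 52 and 55 counts in KO and 23 and 17 counts in WT. Kcnk13 stands in the authors' deposited table at a log2 ratio of 1.34 (FDR 0.182), and limma gave 1.30 ± 0.305 (SE) with an adjusted p of 0.0896. The 8 macrophage markers summed to 14156 and 11034 in KO, against 13123 and 8443 in WT, and their part in the Kcnk13 values was not tested. Kcnk1 had 41.8 and 14.4 in KO, against 26.9 and 25.5 in WT, so that the KO libraries lay on either side of WT. Together the K2P genes took 2.40% and 1.95% of the channel counts in KO, against 1.50% and 1.37% in WT.

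**Figure D4:**
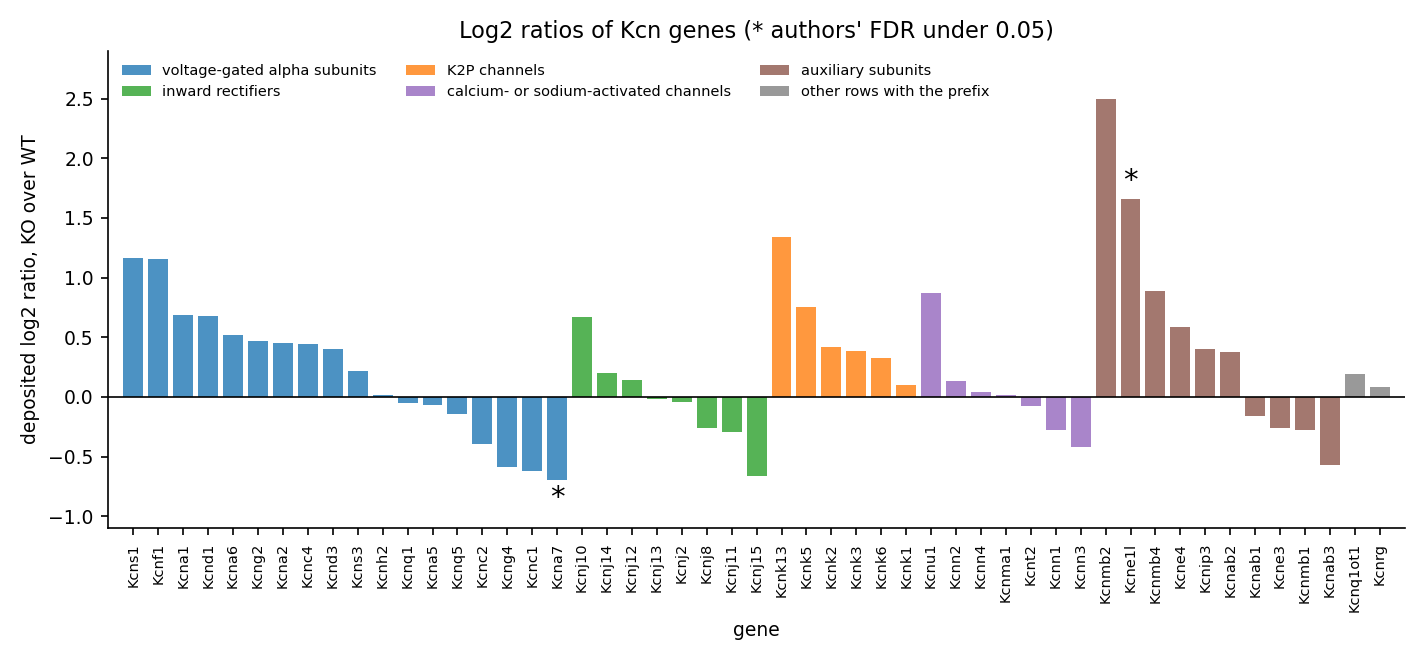
Bars give the authors' deposited log2 ratio (KO over WT) of 51 of the 54 channel genes, with no filter on low values, coloured by class and sorted within it; stars mark an FDR under 0.05. The stars stand over Kcne1l and under Kcna7, all 6 K2P bars are above 0, and the tall Kcnmb2 bar rests on 8 and 21 counts in KO against 3 and 2 in WT.

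Of the 7 genes classed as calcium- or sodium-activated channels, 0 were called by the authors' FDR, by limma or at an unadjusted p under 0.05. The shares over all genes were 2.71%, 0.889% and 11.1%, and in so small a class 0 is near them. The class median log2 ratio was 0.02. Kcnma1, the large-conductance channel opened by calcium and voltage, had 528 and 505 normalized counts in KO, against 526 and 493 in WT. Its values overlapped, with a limma interval from -0.22 to 0.26. The small-conductance genes Kcnn1, Kcnn2 and Kcnn3 encode channels gated by calmodulin. Kcnn1 had 362 and 333 in KO, against 366 and 476 in WT. Kcnn2 had 108 and 129 in KO, against 90.8 and 125 in WT. Kcnn3, known to appear in denervated muscle, had 258 and 185 in KO, against 329 and 264 in WT. The KO values of Kcnn3 were below both WT values, with limma at -0.43 ± 0.197 (SE; adjusted p 0.286). The 11 markers of denervated or immature fibres summed to 3125 and 4015 in KO, against 3620.3 and 2734 in WT. Of these sums Myh8 alone gave 165 and 114 in KO and 901 and 295 in WT. By log2 ratio 9 of the 11 were above 0 and 2 below, with a median of 0.35. In 6 both KO libraries were above both WT libraries and in 2 below, against 25.8% and 25.7% of all listed genes. Of these markers 0 passed limma or the FDR in the authors' deposited table. An unadjusted p under 0.05 there was reached by 2 (18.2%), against 11.1% of all listed genes. Kcnu1, a channel known from mouse sperm, is counted in this class by family, though calcium does not open it. It had 46.3 and 59.8 in KO, against 23.9 and 34.0 in WT, with an FDR of 0.519 in the authors' deposited table. The intermediate-conductance Kcnn4 and the sodium-activated Kcnt2 had between 24.8 and 47.2 normalized counts over all libraries.

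Among the 10 auxiliary subunits Kcne1l rose, 0 fell and 9 were not called in the authors' deposited table. This 1 call is 10% of the class, against 1.01% of all listed genes called higher in KO and 1.7% called lower. The summed share of these 10 subunits in the channel counts was 4.60% and 4.44% in KO, against 1.98% and 2.26% in WT. Most of the KO share came from Kcne1l. The other Kcne genes encode membrane proteins of the same type. Kcne4, which inhibits several voltage-gated channels, had 132 and 126 normalized counts in KO, against 73.8 and 97.8 in WT. Its KO libraries were both above WT, with limma at 0.59 ± 0.212 (SE; adjusted p 0.193). Kcne3, the known partner of Kcnc4, had 33.6 and 22.7 in KO, against 27.9 and 39.4 in WT, with an interval from -1.07 to 0.56. The cytoplasmic beta subunit Kcnab2 had 99.0 and 109 in KO, against 85.8 and 74.4 in WT, while Kcnab1 had 85.4 and 68.1 in KO, against 63.8 and 107 in WT. Kcnab3 had 13.6 and 13.4 in KO, against 21.9 and 18.1 in WT.

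The beta subunits of the large-conductance channel were scarce. Kcnmb1, the smooth muscle type, had 36.3 and 41.2 in KO, against 45.9 and 47.9 in WT, and Kcnmb4, the neuronal type, had 21.8 and 16.5 in KO, against 7.98 and 12.8 in WT. Kcnmb2 had 8 and 21 counts in KO, against 3 and 2 counts in WT, with an FDR of 0.586 in the authors' deposited table. Kcnip3, a calcium-binding partner of A-type channels, had 24.5 and 28.9 in KO, against 16.0 and 24.5 in WT. Outside the subunits proper, Kcnq1ot1, the imprinted RNA transcribed across Kcnq1 from the other strand, had 189 and 226 in KO, against 172 and 190.3 in WT. Kcnrg had 9.08 and 6.19 in KO, against 6.98 and 7.44 in WT.

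The KO libraries did not deviate alike over the whole set. Of the 54 genes, 24 were above the WT mean in both KO libraries and 15 below it in both. Another 14 were above it in KO library 1 and below it in KO library 2, and 1 was the reverse. KO library 1 exceeded KO library 2 for 38 of the 54 genes (70.4%), against 51.0% of all listed genes. Against the WT mean, the channel genes had a median of 0.28 in KO library 1 and of -0.02 in KO library 2. The pooled median log2 ratio of 0.14 became -0.02 when KO library 1 was left out and 0.29 when KO library 2 was, so KO library 1 decides its sign. In 29 genes the genotypes did not overlap, 19 with both KO libraries above WT and 10 below, which is 53.7% where 51.5% of all genes did so (25.8% above and 25.7% below). Of 8 adipocyte markers 0 passed limma or the FDR in the authors' deposited table. They had a median of 1.75 over the WT mean in KO library 1, whereas KO library 2 had -0.44, and their summed counts were 23478 and 15844 in KO, against 16576 and 17763 in WT. Their part in the channel values was not tested.

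**Figure D5:**
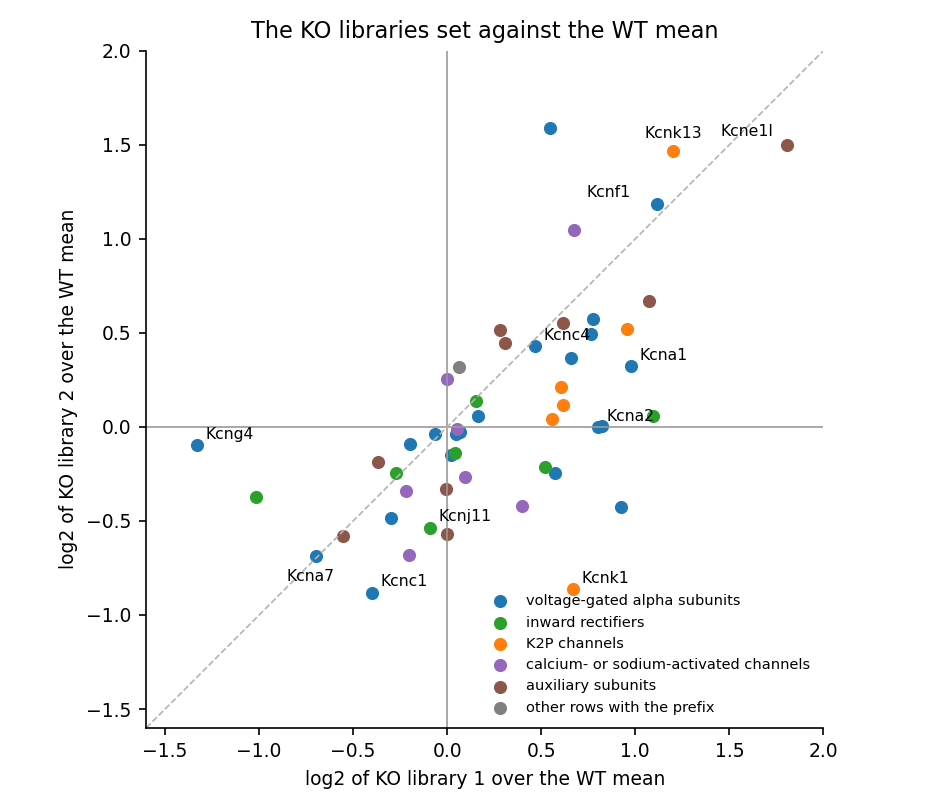
Each point is 1 of the 51 channel genes with a mean of at least 10, placed by the log2 of its level in KO library 1 (horizontal) and KO library 2 (vertical) over the WT mean; the dashed line marks equal values. Kcne1l, Kcnf1, Kcnk13 and Kcna7 lie near the line, whereas Kcna1, Kcna2 and Kcnk1 lie under it and Kcng4 (-1.33 and -0.10) over it.

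Among 20 listed genes of proteins that bind or regulate these channels, 0 rose and 2 fell in the authors' deposited table, with a median log2 ratio of -0.01. That is 10% called, against 2.71% of all listed genes, of which 1.01% were higher and 1.7% lower in KO. Ank2, ankyrin-B, which anchors membrane transporters, had 1253 and 1222 normalized counts in KO, against 2629 and 2320.3 in WT. The genotypes were far apart, with a 2.0-fold lower level in KO and an FDR of 4.95e-08 there, and limma gave -1.0 ± 0.104 (SE; adjusted p 0.0192). Lrrc52, an auxiliary subunit of Kcnu1 in mouse sperm, had 0 and 2 counts in KO, against 23 and 12 counts in WT, with an FDR of 0.0384 in the authors' deposited table. Its mean was below the filter of the limma fit. Lrrc55, a large-conductance channel subunit, had 166 and 179 in KO, against 112 and 105 in WT, with an FDR of 0.251 there.

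The sodium-potassium pump returns the potassium that channels release. Of 19 listed pump and cotransporter genes, 0 passed the authors' FDR and 0 passed limma. An unadjusted p under 0.05 in the authors' deposited table was reached by 4 (21.1%), against 11.1% of all listed genes. Of the beta subunits of the pump, which bring it to the membrane, Atp1b1 had 5502 and 5097 normalized counts in KO, against 11585 and 8119 in WT, and Atp1b2 had 9500.4 and 9593 in KO, against 6617 and 7681 in WT. The 2 beta subunits thus lay on opposite sides of WT in both KO libraries, with FDR values of 0.163 for Atp1b1 and 0.0812 for Atp1b2 in the authors' deposited table.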

How the data were processed

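The authors deposited, for each gene, a mean signal of each genotype (normalized counts), with their log2 ratio, p-value and FDR. The deposited table's own name says that the authors used DESeq for this comparison. Per the submitters' processing notes the build was mm10. Not given in the sources used here are the aligner, counter, strand setting and annotation. The pathway tables were not used, and 0 columns belong to samples that could not be mapped.

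The log2 column is the log2 ratio of the deposited means. Each mean was solved for whole counts of 2 libraries per genotype: 1 step explained 6.33% of the 300 lowest values in KO and 7.67% in WT, and 2 steps 100%, with 1 solution for each of 14617 genes (tolerance 1e-13 of the value). Libraries of a genotype differed beyond sampling noise (chi-square per degree of freedom 27.3 in KO and 29.9 in WT).

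The deposited table holds means and no counts per sample, and calls rest on the authors' FDR (under 0.05). Limma (3.58.1, R 4.3.3) was fitted to log2 of the normalized count plus 1, over the 14053 genes whose mean reached 10, with trend and robust moderation, two-sided, Benjamini-Hochberg adjustment and 2 residual degrees of freedom. On simulated counts over 13982 genes, all given the same spread beyond sampling noise, 90% of 2-fold and 100% of 4-fold changes were called. Of the simulated calls 3.63% were unchanged genes. Measured genes need not spread alike, so these shares do not say how many such changes the fit found here. The pseudocount understates changes of low genes, and 2 against 2 libraries allow no permutation p under 0.3333.

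Members and lists were chosen with earlier results of these data known. The genes named by rule were all called genes, the 4 highest means of each class, the 3 highest and 3 lowest ratios among genes whose mean reached 50, and a list of known fibre channels. Others are named to account for further members, and some genes are not reported here. Alternatives were other scalings, pseudocounts, filters, weights, removal of chromosomes X and Y, and leaving out each library.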

Additional observations from a re-analysis of the deposited data

How the results depend on the processing

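No paired analysis was possible because the replicate numbers only follow the order of the samples and the recovered libraries cannot be tied to samples. The count of called channel genes was 2 by the authors' FDR, 3 at an FDR under 0.1 and 3 with genes of a mean of at least 50, Kcnc1 being the added gene. By limma it was 2. It was 1, Kcne1l, under total-count, upper-quartile and quantile scaling, with totals without the 20 most abundant genes and without robust moderation, and 1, Kcna7, without chromosomes X and Y. Leaving out a library changed which channel genes were called, and the number called over all genes changed with it. Without KO library 1 the difference of Kcnc1 was -0.88, and without KO library 2 that of Kcna1 was 0.98. The lone library left is then assumed to vary like the other genotype's. Over all genes limma called 125, of which 60 were higher in KO. It called 206, with 156 higher, with totals without the 20 most abundant genes, which moved the median of all genes by 0.11 on the log2 scale. It called 27 without robust moderation and 11 without WT library 1.

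The median log2 ratio of the 54 genes ranged from -0.021 to 0.29 when 1 library was left out. For inward rectifiers the median was -0.26 with a mean of at least 50 and ranged from -0.23 to 0.10 when 1 library was left out. The same range was 0.17 to 0.64 for K2P channels, -0.27 to 0.066 for calcium- or sodium-activated channels, -0.03 to 0.47 for voltage-gated subunits and 0.26 to 0.51 for auxiliary subunits. Channel partners had 1 call by limma against 2. The limma difference of 4 genes, none of them called, changed sign with a shift larger than its SE: Kcnab1 and Kcnq5 turned positive without WT library 2, Kcnn2 negative without WT library 1, and Kcnj2 positive (0.063) with totals without the 20 most abundant genes. Over the fits without 1 library Kcnab1 ranged from -0.49 to 0.25, Kcnq5 from -0.30 to 0.034 and Kcnn2 from -0.088 to 0.38. The differences of Kcne3 and Kcnma1, and those of Kcnab1 and Kcnj2 in other settings, changed sign by less than their SE. The causes were not tested. Over all alternatives 389 values stayed on the same side of the threshold or within the spread, and 16 moved. The call of Kcna7 was lost in 7, and Kcna1 and Kcnc1 were each called in 1. In all, 3 of the 54 genes had a mean under 10 and were outside the limma fit.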
